A study of Mus musculus with 4 samples.

Results

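Plasmacytoid dendritic cell (pDC) genes were followed across 4 mouse microarrays. The 8 genes were Siglech, Ccr9, Pld4, Tlr7, Tlr9, Tcf4, Irf8 and Runx2, and they were represented by the 16 probes that carry those names among 55681 non-control probes. Of the 28286 genes with a probe well above background on at least 1 array, 8 were therefore members, and each of the 8 passed that filter. The members were selected on their signals in these arrays, among the genes known for this cell type, so the values below are a description and carry no test.

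Each array held RNA of 1 sorted preparation from donor mice of the C57BL/6J strain, which were male and 10 weeks old. The 4 groups were LT-HSC (CD34- Flt3- LSK cells, the long-term stem cell gate) and MPP (CD34+ Flt3+ LSK cells, the multipotent progenitor gate), each from wild type (WT) and from p38 cKO (cKO) donors, a conditional knockout of the kinase that the study's title names as p38 alpha. In all 4 groups the sorted marrow cells were then labelled with the dye CFSE and injected into congenic Ly5.1 recipients irradiated with 9.5 Gy, and the CFSE-positive cells were sorted back 16 h later. The comparison of genotypes addresses the role of p38 alpha in these cells after transplantation. The Cre driver of the knockout and the number of mice behind an array were not given in the sources used here. Each group had 1 array, so no difference has a replicate check and precision is limited by the array number. Errors written with ± are those of the scanner software for a single spot and cover neither cells nor sorts.

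The labelled gates can be set against their markers. Kit and Ly6a, the receptor and the surface antigen of the LSK gate, were well above background on all 4 arrays. Cd34 had a processed signal of 1169 (WT) and 3601 (cKO) for LT-HSC, against 7733 (WT) and 6331 (cKO) for MPP, so it was lower in LT-HSC than in MPP in both genotypes. Flt3 had 176.6, 189.2, 515.1 and 365.3 in the same order at its brightest probe, but 2 other probes differed the other way, by 0.22 and 0.88 (log2) for LT-HSC minus MPP in WT. The processed signal is the spot's brightness after background subtraction, in linear units. The 75th percentile of an array, to which differences were scaled, was 213.7 (WT) and 202.0 (cKO) for LT-HSC, against 178.5 (WT) and 174.9 (cKO) for MPP. By 2-fold, 1 of 9 listed stem and progenitor genes was higher in LT-HSC than in MPP and 3 were lower, in each genotype. Of all genes compared, 10.7% were higher and 19.3% lower in WT, and 8.18% and 6.74% in cKO. Ly6a (1.96, log2) was the higher one in WT, and Cd34 (-2.99), Flt3 (-1.80) and Procr (-1.18) the lower ones. In cKO Mecom (-1.75, second probe -0.42) took the place of Procr. The list medians were -0.62 in WT and -0.15 in cKO.

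Plasmacytoid dendritic cells are round, antibody-secreting-cell-like members of the dendritic lineage that circulate from the marrow and release large amounts of type I interferon when they sense viral nucleic acid. They sense it in endosomes, where Tlr7 binds single-stranded RNA and Tlr9 binds DNA with unmethylated CpG. Their identity rests on the E protein Tcf4 (also called E2-2), with Irf8, Runx2 and Spi-B as further transcription factors, and Siglec-H is the surface lectin most used to recognise them in mice. Several of these genes are not exclusive to the lineage: Irf8, Pld4, Tlr7 and Tlr9 are also read in B cells and in other myeloid cells, and Tcf4 and Runx2 outside the blood.

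The probes of Siglech did not tell the same story, and their sequences are shown because that difference decides how the gene reads. Each array has 3 probes for it, all of 60 bases. The last 30 bases of each probe, 5′ to 3′, are given here with any tandem repeat of 12 bases or more in capitals.
Siglech, position 2281 of its transcript: tctgtctcAAAGAAAGAAAGAAAGAAAGAA
Siglech, position 2019: ctccaaagttgaagaggctttgacttagtt
Siglech, position 1695: ccctggtggattcctcccaacatttctgga
The probe at position 2281 ended in a 22-base run of the unit AAAG. That probe shared a run of 15 or more bases with 15 probes of other genes on the array, and with 78 of 32851 RefSeq promoter windows (either strand). The other 2 Siglech probes shared such a run with 0 probes of other genes and with 0 promoter windows. Among the other 13 probes of the 8 genes the highest counts were 2 probes of other genes and 7 promoter windows, both for a Runx2 probe at position 2660 that was not well above background on any array.

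At position 2281 (mm9 chromosome 7, 63034088 to 63034147) the Siglech signal was 5526 (WT) and 5099 (cKO) for LT-HSC, against 4690 (WT) and 4309 (cKO) for MPP. After scaling, the 4 arrays lay within 2 scanner errors of their neighbours in rank, so this probe was flat at this scaling. With quantile normalization LT-HSC minus MPP in WT was 0.47, and 0.45 with normexp before it, both more than 2 scanner errors. At position 2019 (63033826 to 63033885), 262 bases away on the same transcript, the signals were 958.2, 600.2, 6.61 and 5.15 in that order. Both MPP values were not well above background, and LT-HSC was at least 51.9-fold higher than MPP in WT and at least 43.4-fold higher in cKO. A bound of this kind sets the brighter array against the lowest signal well above background on the dimmer one, or against the dim probe's own value if that is higher. The third probe, at position 1695 of a different Siglech transcript (63028608 to 63028667), had 426.0, 130.2, 5.66 and 5.94, with LT-HSC at least 23.1-fold higher in WT and at least 9.42-fold higher in cKO. Siglech was thus well above background on both LT-HSC arrays and at background on both MPP arrays at the 2 probes without the repeat. At the probe with it, neighbouring arrays lay within 2 scanner errors. The part of the repeat in that signal was not tested.

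**Figure D1:**
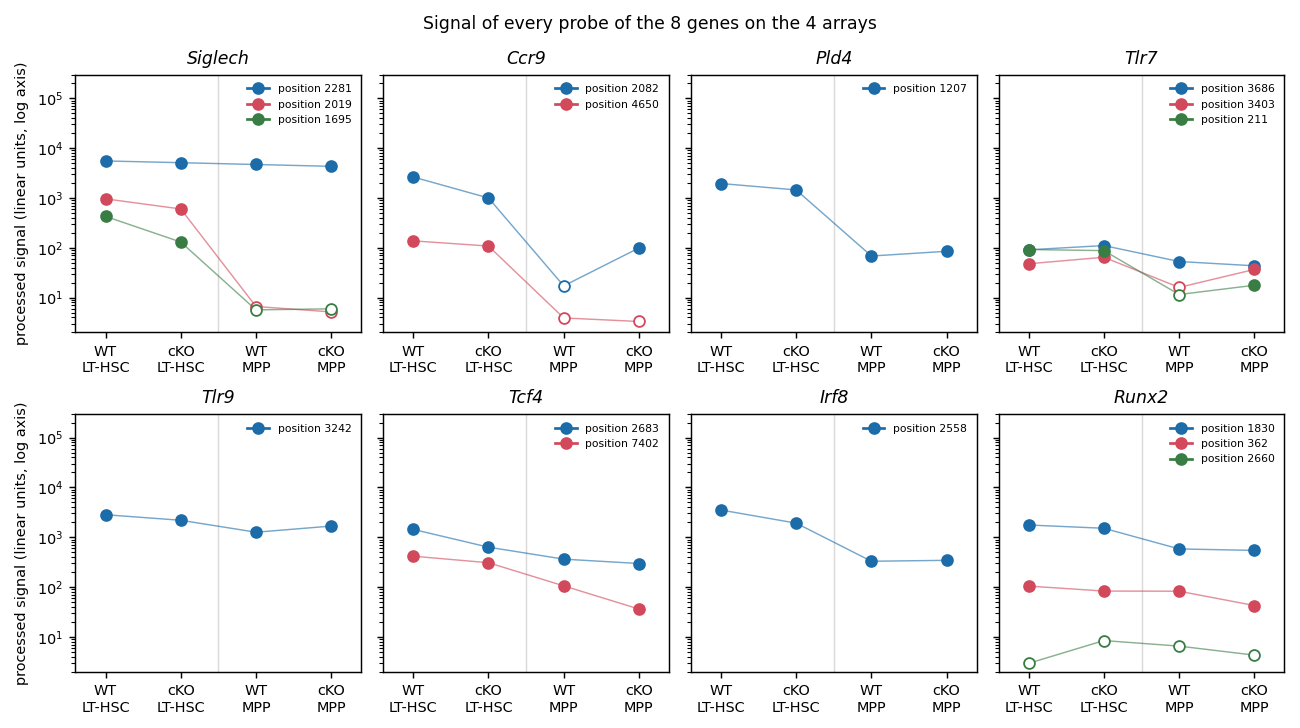
Processed signal (linear units, log axis) of each of the 16 probes of the 8 genes on the 4 arrays, 1 panel per gene and 1 colour per probe, labelled by the position in the transcript that the files give. Filled points are well above background and open points are not. Siglech and Ccr9 fall from well above background on the LT-HSC arrays to background in MPP at all probes but Siglech 2281 and the cKO MPP value of Ccr9 2082. Lines only join values of 1 probe.

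Ccr9 is the chemokine receptor that guides pDC and thymus-seeding progenitors toward Ccl25. It had the largest LT-HSC minus MPP value of the members in WT, though not in cKO. In WT its MPP signal was at background, so that value is a lower bound. The Siglech probes without the repeat also gave lower bounds, so the 2 genes cannot be ranked. The Ccr9 probe at position 2082 (mm9 chromosome 9, 123690334 to 123690393) had a signal of 2629 (WT) and 998.1 (cKO) for LT-HSC, against 17.2 (WT) and 98.8 (cKO) for MPP. The WT MPP value was not well above background, and no pair of neighbours in this order lay within 2 scanner errors. LT-HSC was at least 128-fold higher than MPP in WT, and higher by 3.13 ± 0.21 (log2) in cKO. The second probe, at position 4650 of an uncharacterised complementary DNA (123680935 to 123680994), had 137.5 and 108.1 in LT-HSC and 3.90 and 3.31 in MPP, both of the latter not well above background. It showed LT-HSC at least 7.45-fold higher in WT and at least 7.82-fold higher in cKO, and it did not show the cKO MPP signal of the first probe.

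Pld4, an endolysosomal exonuclease that trims single-stranded nucleic acids before they reach the Toll-like receptors, had a single probe (mm9 chromosome 12, 114006018 to 114006077). Its signal was 1946 (WT) and 1447 (cKO) for LT-HSC, against 68.2 (WT) and 84.9 (cKO) for MPP. LT-HSC exceeded MPP by 4.57 ± 0.22 in WT and by 3.88 ± 0.21 in cKO. The probe was well above background on all 4 arrays, so these are measured differences and not bounds, and both genotypes of a population lay within 2 scanner errors of each other.

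The 2 nucleic acid receptors differed less between the populations. Tlr9 (mm9 chromosome 9, 106128979 to 106129038) had signals of 2829 (WT) and 2191 (cKO) for LT-HSC, against 1261 (WT) and 1674 (cKO) for MPP. The order was WT LT-HSC, cKO LT-HSC, cKO MPP and WT MPP. Only the last step exceeded 2 scanner errors. LT-HSC minus MPP was 0.91 ± 0.20 in WT and 0.18 ± 0.20 in cKO. Tlr9 was bright on every array, including both MPP arrays, unlike Siglech at position 2019.

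Tlr7 was dim, and its 3 probes agreed in direction but not in size. The probe at position 3686 (mm9 chromosome X, 163742863 to 163742922) had 91.0 (WT) and 110.6 (cKO) for LT-HSC, against 52.9 (WT) and 43.4 (cKO) for MPP. LT-HSC minus MPP there was 0.52 ± 0.23 in WT and 1.14 ± 0.23 in cKO. At position 3403 the signals were 47.7, 64.4, 15.98 and 36.7 in that order, and at position 211 of another transcript they were 92.1, 87.6, 11.5 and 17.6. The WT MPP value was not well above background at either of these probes. LT-HSC was at least 2.49-fold and at least 4.99-fold higher in WT, and higher by 0.61 ± 0.25 and 2.10 ± 0.31 in cKO. All 3 probes therefore placed both LT-HSC arrays above both MPP arrays, though at position 3403 WT LT-HSC and cKO MPP lay within 2 scanner errors.

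Of the transcription factors, Irf8, which drives the dendritic and monocyte branches and restrains granulocytes, showed the widest gap at the brightest probes in both genotypes, below the second Tcf4 probe in cKO. Its probe (mm9 chromosome 8, 123280324 to 123280383) had 3518 (WT) and 1917 (cKO) for LT-HSC, against 329.5 (WT) and 343.9 (cKO) for MPP. LT-HSC exceeded MPP by 3.16 ± 0.20 in WT and by 2.27 ± 0.20 in cKO. The MPP arrays lay within 2 scanner errors of each other, and the LT-HSC arrays did not.

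Tcf4, the E protein that specifies pDC, had 2 probes, each detected above background throughout. At position 2683 the signals were 1436 (WT) and 631.5 (cKO) for LT-HSC, against 363.4 (WT) and 296.7 (cKO) for MPP. At position 7402 they were 416.3, 307.6, 105.7 and 36.2 in the same order. Both probes placed the LT-HSC arrays above the MPP arrays, and in WT they gave the same difference of 1.72 ± 0.20 and 1.72 ± 0.21. In cKO they disagreed, with 0.88 ± 0.20 and 2.88 ± 0.23.

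Runx2, a runt-domain factor best known from bone and needed for pDC to leave the marrow, had 1 bright probe. At position 1830 (mm9 chromosome 17, 44744925 to 44744984) the signals were 1760 (WT) and 1513 (cKO) for LT-HSC, against 582.2 (WT) and 544.1 (cKO) for MPP. LT-HSC minus MPP was 1.34 ± 0.20 in WT and 1.27 ± 0.20 in cKO. At position 362 (44951128 to 44951187) the signals were 104.5, 83.1, 82.5 and 42.6, and the differences were 0.08 ± 0.22 and 0.76 ± 0.24. The bright probe thus separated the populations in both genotypes, and the dimmer one did not separate them in WT beyond its error.

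Taken by gene, with the brightest probe standing for each, 5 of the 8 members were higher in LT-HSC than in MPP by 2-fold or more in WT, namely Pld4, Tcf4, Irf8, Ccr9 and Runx2, and 0 were lower. Of 25424 genes compared, 10.7% were higher and 19.3% lower by that much. In cKO 5 of 8 were higher, with Tlr7 in place of Tcf4, and 0 lower, against 8.18% higher and 6.74% lower of 26842 genes. Since the members were chosen with this contrast in view, nothing is read from these shares. The median of the members measured on both arrays was 1.34 in WT (7 genes) and 1.20 in cKO (8 genes), and that of all genes was -0.20 and -0.09. With Siglech taken from its probe at position 2019, a choice made after its values were seen, 6 of 8 were higher in each genotype. The WT and cKO comparisons share no array. In these bulk samples, more cells of a type and more RNA per cell cannot be told apart.

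**Figure D2:**
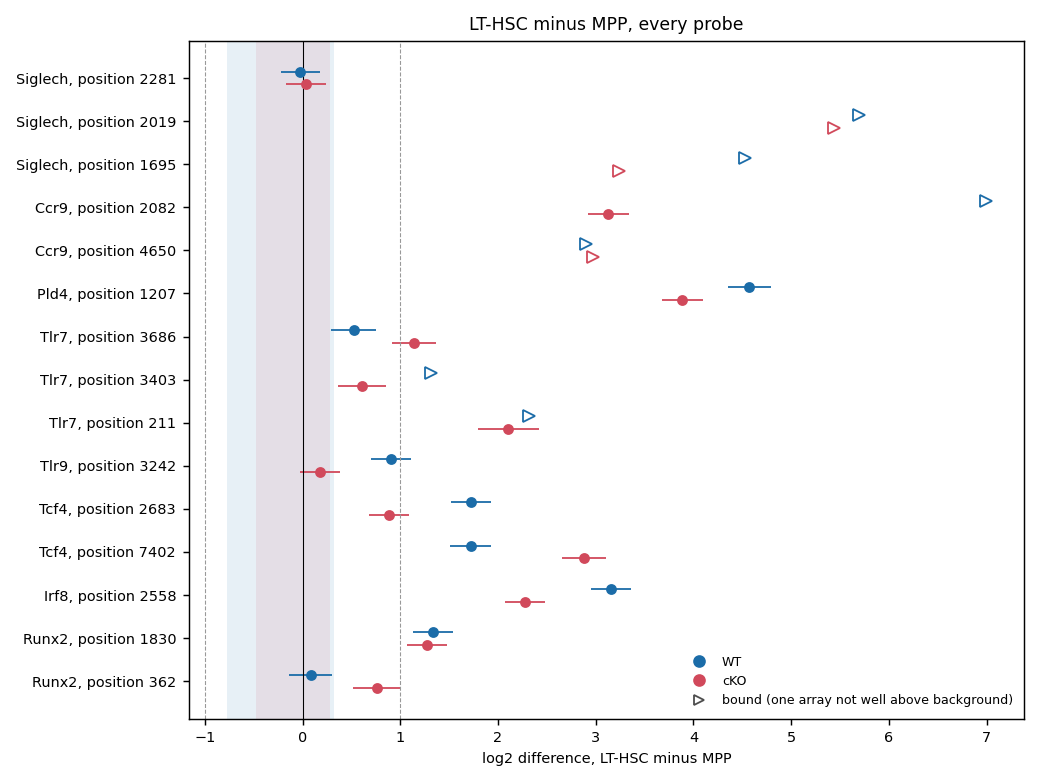
Log2 difference of LT-HSC minus MPP for the 15 probes of the 8 genes well above background on at least 1 array, in WT and in cKO, with the scanner error as a bar. Open triangles are bounds where 1 array was not well above background, dashed lines mark 2-fold, and the shaded bands hold the middle 50% of all genes; only the Siglech probe at position 2281 sits at 0 in both genotypes (-0.02 and 0.04).

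The comparison of genotypes was read in each population. In LT-HSC, 7 of the 8 members were lower on the cKO array, 2 of them by 2-fold or more, Ccr9 (-1.32 ± 0.20) and Tcf4 (-1.10 ± 0.20). The share of all 27592 genes lower by that much was 8.27%, and 0 members were higher by 2-fold against 10.8% of genes. Irf8 (-0.79 ± 0.20), Pld4 (-0.35 ± 0.20), Tlr9 (-0.29 ± 0.20), Runx2 (-0.14 ± 0.20) and Siglech (-0.03 ± 0.20) followed, and Tlr7 was higher by 0.36 ± 0.21. Of these, all but Irf8 lay within 2 scanner errors. The share of all genes lower by any amount was not counted, so nothing is read from the number of members lower. The median was -0.32, and over all genes it was 0.10.

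Second probes changed the size of several of these values. Siglech differed by -0.59 ± 0.20 at position 2019 and by -1.63 ± 0.21 at position 1695. Ccr9 stood at -0.26 ± 0.21 at position 4650, and Tcf4 at -0.36 ± 0.20 at position 7402, so neither gene reached 2-fold at its second probe. With a gene's probes averaged, Ccr9 was at -0.79 and Tcf4 at -0.73, and 0 members reached 2-fold. By probe, 12 of the 15 that were well above background somewhere were lower on the cKO LT-HSC array and 3 higher, the latter all of Tlr7. Of the 12, only Irf8, Siglech at positions 2019 and 1695, Tcf4 at 2683 and Ccr9 at 2082 differed by more than 2 scanner errors. This comparison uses the same LT-HSC arrays as those of the populations.

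In MPP the members did not move one way. Of the 8, 4 were higher and 4 lower on the cKO array, with Ccr9 at least 5.87-fold higher at position 2082, where it rose out of background, as the 1 member past 2-fold. Across 25081 genes 2.43% were higher and 2.8% lower by that much. With normexp background correction and quantile normalization that Ccr9 bound was 1.06 (log2), against 2.55. With its probes averaged the bound was 0.18. There the second probe, at background on both MPP arrays, entered the WT array at the lowest signal well above background and the cKO array at its own value. The other members lay between -0.26 for Tcf4 and 0.44 ± 0.20 for Tlr9. At its second probe, however, Tcf4 differed by -1.52 ± 0.23, Runx2 by -0.92 ± 0.24 at position 362, and Tlr7 was at least 2.34-fold higher at position 3403. Siglech at positions 2019 and 1695 was not well above background on either MPP array, so it has no genotype difference there. The median of the 7 members measured on both arrays was -0.07, which turned to 0.05 with quantile normalization, and that of all genes was -0.06.

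**Figure D3:**
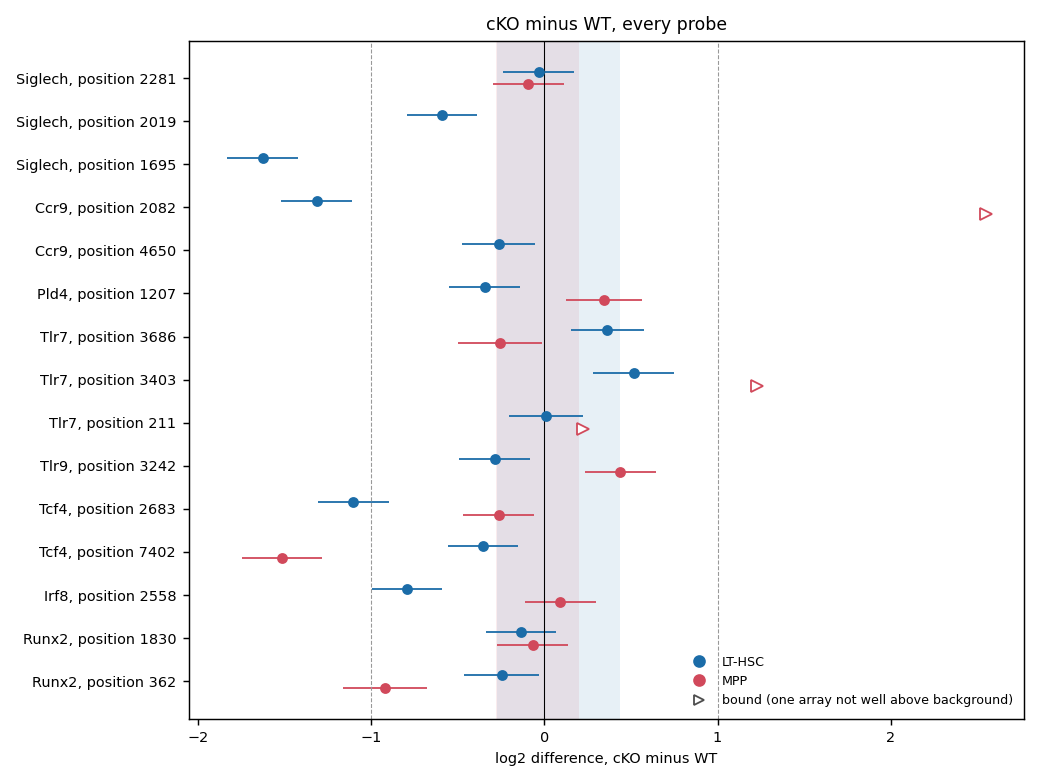
Log2 difference of cKO minus WT for the same 15 probes in LT-HSC and the 12 of them with a value in MPP, with the scanner error as a bar, open triangles for bounds, dashed lines at 2-fold and shaded bands for the middle 50% of all genes. In LT-HSC 12 of 15 probes lie below 0, several of them within 2 scanner errors. In MPP the probes scatter on both sides. Probes of Tcf4 disagree in size in both populations, and those of Ccr9 in LT-HSC, since its second probe has no value in MPP.

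The other genes of the lineage came from lists written for this work with earlier results known. Of 20 surface and effector genes that mark pDC, 19 had a value. Of them 14 were higher in LT-HSC than in MPP by 2-fold or more in WT and 12 in cKO, with 0 lower in either. Over all genes the shares were 10.7% higher and 19.3% lower in WT, and 8.18% and 6.74% in cKO. The medians of the list, over genes measured on both arrays, were 2.08 in WT (17 genes) and 1.42 in cKO (16 genes). Jchain, the joining chain of secreted antibodies, which pDC also transcribe, had signals of 4376 (WT) and 5469 (cKO) for LT-HSC, against 40.7 (WT) and 46.2 (cKO) for MPP. Klk1, a tissue kallikrein, had 2145, 445.6, 24.9 and 21.4 in that order, so it differed by 6.17 ± 0.27 in WT and also by -2.19 ± 0.20 between cKO and WT in LT-HSC. Upb1, an enzyme of pyrimidine breakdown, had 1433, 665.4, 18.6 and 3.08, and Ly6d, a surface antigen of lymphoid progenitors that pDC share, had 1434, 885.5, 39.1 and 38.4. Each of these 4 genes was bright on both LT-HSC arrays and dim on both MPP arrays.

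Between genotypes in LT-HSC, 4 of these 19 genes were lower in cKO by 2-fold or more and 0 higher, with a median of -0.50. Of all genes, 8.27% were lower and 10.8% higher by that much. In MPP 1 gene of the list was higher and 0 lower, against 2.43% and 2.8% of all genes. Klk1 (-2.19), Upb1 (-1.02) and Ly6d (-0.61) were lower on the cKO LT-HSC array, and Jchain stood at 0.40 ± 0.20.

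The 16 transcription factors and receptors of pDC development did not all go one way. In WT 5 were higher in LT-HSC than in MPP by 2-fold and 2 lower, and in cKO 5 and 1, with medians of 0.68 and 0.38. The shares of all genes were 10.7% higher and 19.3% lower in WT, and 8.18% and 6.74% in cKO, so nothing is read from the lower counts. Spib, which encodes the Ets factor Spi-B of pDC and B cells, had signals of 5299 (WT) and 2111 (cKO) for LT-HSC, against 27.4 (WT) and 27.2 (cKO) for MPP. Its differences were 7.34 ± 0.29 in WT, 6.07 ± 0.27 in cKO and -1.25 ± 0.20 for cKO minus WT in LT-HSC. Irf7, the factor that switches on interferon genes, was higher in LT-HSC by 2.19 ± 0.21 in WT and 1.28 ± 0.20 in cKO. Id2 (2.07 and 1.26) and Id3 (2.10 and 1.94) were higher as well, although their proteins block E proteins such as Tcf4 and Id2 opposes the pDC fate. Flt3, the cytokine receptor through which pDC develop, was lower by 1.80 at its brightest probe, but the sort selected against its protein in LT-HSC and 2 other probes went the other way.

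The shared machinery of endosomal sensing did not follow the members as a list. Of 17 genes 16 were measured, and 2 were higher in LT-HSC by 2-fold in WT and 0 lower, with a median of -0.05. In cKO 1 was higher and 2 lower, with a median of -0.20. Among all genes 10.7% were higher and 19.3% lower in WT, and 8.18% and 6.74% in cKO. Unc93b1, the chaperone that carries Tlr7 and Tlr9 to endosomes, was higher by 2.18 ± 0.21 in WT and 0.98 ± 0.20 in cKO. Its signals were 1571 (WT) and 923.9 (cKO) for LT-HSC, against 289.2 (WT) and 406.6 (cKO) for MPP. Irf5, a factor downstream of these receptors, was higher by 1.84 ± 0.21 and 1.45 ± 0.20, and Slc15a4, the endolysosomal histidine transporter that pDC need for Tlr7 and Tlr9 signals, by 0.78 ± 0.20 and 0.41 ± 0.20. Traf6, the ligase of the same pathway, was lower by 0.80 on the log2 scale in WT at its brightest probe, with other probes at 1.27 and -1.74.

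Interferon genes and their receptors differed by less than 2-fold between the populations in WT at their brightest probes. Of 17 genes of interferons and their receptors, 14 had a probe and 11 were well above background on at least 1 array. In WT 0 of the 9 with a value were higher or lower by 2-fold, against 10.7% and 19.3% of all genes. In cKO 2 of 10 were higher in LT-HSC and 0 lower, against 8.18% and 6.74%. Ifna12, an interferon alpha gene, had 177.7 (WT) and 175.2 (cKO) for LT-HSC, against 190.0 (WT) and 198.8 (cKO) for MPP, and was well above background on all 4 arrays. Ifnb1 had a probe that was not well above background on any array. Ifnar1, a chain of the type I receptor, was higher in LT-HSC by 0.97 ± 0.20 in WT and 1.97 ± 0.20 in cKO at its brightest probe, with other probes at 1.79 and 1.43 in WT and at -0.23 and 0.82 in cKO.

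**Figure D4:**
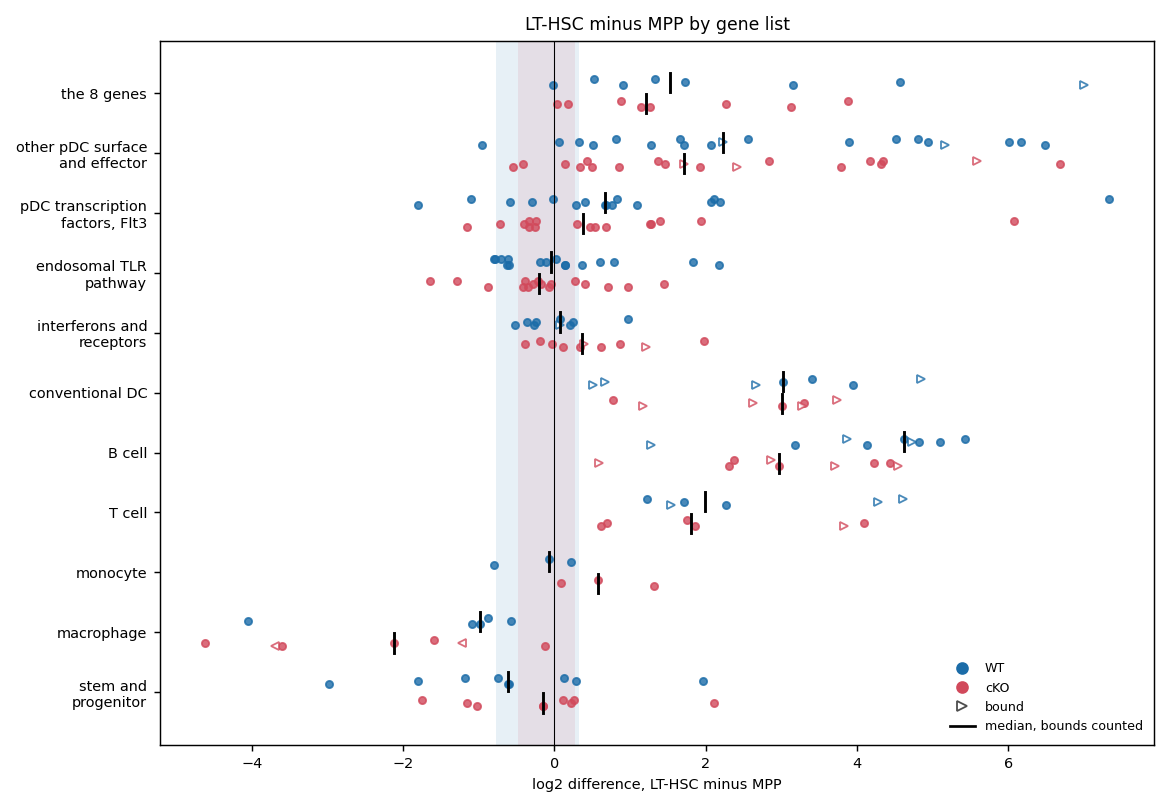
Log2 difference of LT-HSC minus MPP for each gene of the lists (brightest probe), in WT and in cKO; open triangles are bounds, black bars the list medians with bounds counted, and shaded bands the middle 50% of all genes. The medians of the pDC surface and effector list lie to the right of the bands, as do those of the conventional dendritic cell, B cell and T cell lists. Those of the 8 genes and of the transcription factor list (0.68 in WT, 0.38 in cKO) do so as well. In cKO the medians of the monocyte (0.58) and interferon (0.37) lists also lie to the right. Single genes of the pDC list lie inside the bands or to their left. The endosomal pathway list has medians of -0.05 in WT and -0.20 in cKO, and the medians of the macrophage list lie to the left.

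Markers of other mature cells moved with the members. The counts below stand beside 10.7% of all genes higher in LT-HSC than in MPP by 2-fold in WT and 8.18% in cKO. B cell markers, 9 of 9 with a value, were higher in LT-HSC than in MPP by 2-fold in 9 of 9 in WT and 8 of 9 in cKO. Only 6 in WT and 5 in cKO were measured on both arrays, and the others were bounds. The summed signal of the B cell markers, in multiples of the array's 75th percentile, was 63.3 (WT) and 25.6 (cKO) for LT-HSC, against 2.43 (WT) and 2.07 (cKO) for MPP. Conventional dendritic cell markers, 7 of 8 with a value, were higher by 2-fold in 5 and 6, with sums of 75.7, 68.9, 7.91 and 7.34 in the same order. T cell markers, 6 of 6 with a value, were higher in 6 and 4, with sums of 11.2, 9.31, 2.10 and 2.35. Of the T cell markers, 3 in WT and 5 in cKO were measured on both arrays. For the conventional dendritic cell list, H2-Ab1, at 10937 (WT) and 10851 (cKO) in LT-HSC, was the largest part of the sums. Only 3 of its 7 genes were well above background on both arrays of a genotype, and the others were bounds. Between genotypes in LT-HSC, 3 of the 7 were lower in cKO by 2-fold or more and 1 higher, with a median of -0.62. In that comparison 8.27% of all genes were lower and 10.8% higher by 2-fold. The sums of the 3 monocyte markers measured were similar on all arrays, between 20.7 and 23.8, but 2 of the 3 were higher by 2-fold in cKO than in WT LT-HSC, with a median of 1.30. The largest part of these sums was Csf1r, at 5010 (WT) and 4430 (cKO) in LT-HSC, against 3602 (WT) and 3624 (cKO) in MPP. Its 2 other probes stood at -1.05 and 0.83 for LT-HSC minus MPP in WT.

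Individual markers show how far this went. Clec9a, a receptor of cross-presenting dendritic cells, had 533.8 (WT) and 184.4 (cKO) for LT-HSC, against 3.34 (WT) and 5.18 (cKO) for MPP. Cd3e, of the T cell receptor complex, had 1035, 833.8, 178.7 and 214.5 in the same order. No marker was listed at 0, but the MPP values of Clec9a, Ebf1, Ms4a1, Igll1, Batf3, Cd209a and Cd3g were not well above background on either array, and Xcr1 was not on any array. B cell markers were also lower on the cKO than on the WT LT-HSC array, by 2-fold or more in 7 of 9 with a median of -1.08. Of all genes 8.27% were lower by that much. Macrophage markers went the other way, with sums of 3.71, 4.69, 9.10 and 26.5. The part of such cells in the values of the 8 genes was not tested, and with 1 preparation per group it cannot be told apart from the population or the genotype.

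**Figure D5:**
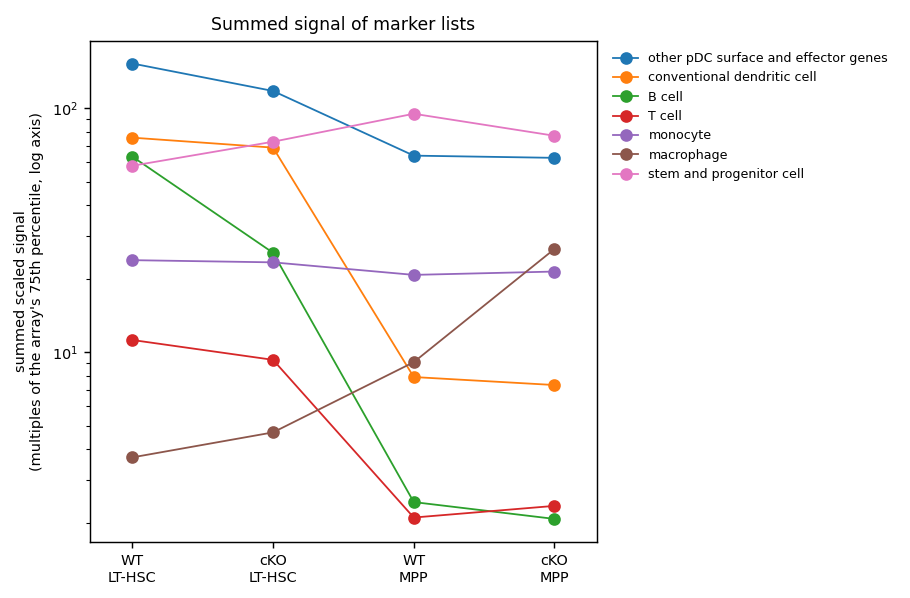
Summed signal of the brightest probes of each marker list on the 4 arrays, in multiples of the array's 75th percentile (log axis), with lines joining the values of 1 list. B cell, T cell and conventional dendritic cell sums are all higher on the LT-HSC arrays than on the MPP arrays, as is that of the other pDC genes, and the macrophage sum is highest on the cKO MPP array at 26.5.

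Promoter sequences of the members were searched for the letters that factors of this lineage are known to bind. RefSeq windows (build GRCm38.p6, 250 bases before to 50 after a start site) were matched for 6 of the 8 genes in 7 windows. The E-box CACCTG, the kind of site that E proteins such as Tcf4 bind, was found on either strand in 4 of the 7 windows, those of Siglech, Ccr9 and Tlr9 and the second of 2 windows of Irf8, against 20.2% of 32851 windows. The other E-box searched, CAGCTG, was in 0 of 7 against 16.3%. TGTGGT, the core that Runx factors bind, was in those of Siglech and Runx2 (16.8% of all windows), and GAGGAAGT, bound by PU.1 and Spi-B, in those of Pld4 and Tlr9 (3.20%). The Ets-IRF composite element and the interferon-stimulated response element, which overlap in their last letters, were in 0 of 7, against 2.71% and 3.44%. A match is a description of these windows and says nothing about binding.

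The stretches before the gene start of 3 of these promoters are shown, on the strand of the gene, with CACCTG and TGTGGT on either strand in capitals.
Siglech, chr7:55767934-55768153 (+): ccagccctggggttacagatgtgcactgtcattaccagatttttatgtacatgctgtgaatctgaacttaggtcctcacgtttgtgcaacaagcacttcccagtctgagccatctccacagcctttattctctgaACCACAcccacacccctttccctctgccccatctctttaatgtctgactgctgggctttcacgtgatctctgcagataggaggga
Ccr9, chr9:123766961-123767210 (+): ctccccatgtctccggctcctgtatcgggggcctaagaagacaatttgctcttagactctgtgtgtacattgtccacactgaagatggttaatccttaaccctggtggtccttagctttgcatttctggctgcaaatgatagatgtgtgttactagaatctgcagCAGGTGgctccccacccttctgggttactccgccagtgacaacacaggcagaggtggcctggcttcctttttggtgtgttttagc
Tlr9, chr9:106222348-106222597 (+): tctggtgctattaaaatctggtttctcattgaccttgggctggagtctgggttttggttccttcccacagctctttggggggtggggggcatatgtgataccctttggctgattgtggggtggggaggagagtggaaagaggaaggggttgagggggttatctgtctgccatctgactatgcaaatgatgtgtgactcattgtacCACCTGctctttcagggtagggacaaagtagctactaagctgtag
The E-box of Ccr9 begins 85 bases and that of Tlr9 45 bases before the start site of the window. That of Siglech begins 20 bases before it, past the shown stretch, which ends at the gene start in RefSeq.

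Genes whose pattern over the 4 arrays was most like that of a member were found by the Euclidean distance between log2 profiles, each minus its own mean, with values below the lowest signal well above background set to it. Nearest to Tcf4, at distances of 0.04 to 0.14, were the lysosomal calcium channel gene Mcoln1, Osbpl5, Slco4a1, Bcl3, Nxpe2, Dnase1l1 and Podnl1, with 1 unnamed locus. For Siglech at its brightest probe the nearest genes were flat ones, among them Med1 and Elk1. For the Siglech probe at position 2019 the 8 nearest lay at 0.10 to 0.46 and held Upb1, Olfr164 and 6 transcripts without a symbol, 3 of them described in the files as immunoglobulin genes. Mcoln1 had 1251 (WT) and 564.3 (cKO) for LT-HSC, against 329.7 (WT) and 262.5 (cKO) for MPP. Over 4 arrays and 28286 genes such neighbours are a description of these libraries.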

How the data were processed

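The scanner tables, 1 per sample, hold the authors' spot intensities, made per the file headers with version 10.7.3.1 of Agilent's Feature Extraction (9.5.3 in the submitters' processing notes), on design 028005 with mm9 probe positions. The deposited intensities used here had background removed and spatial trends corrected within each array, per the file headers, and were not scaled between arrays. Deposited flags, a score of 0 or 1 per spot, mark detection, saturation and outliers. The deposited series table held ratios, each probe relative to its own level, and was an alternative. All arrays lay on 1 slide and in 1 scan, with 62.5% to 70.5% of spots well above background and 0 saturated, and 137 to 151 outlier spots were left out.

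Spots of a probe were averaged as log2 signal minus the array's 75th percentile over probes. Members were matched by the name in the files. Other probes were named through RefSeq (GRCm38.p6, names only): 26744 by accession, 3820 by symbol and 639 by an older symbol, while 24462 kept the file's name. A gene was represented by its brightest probe well above background on at least 1 array. Differences between pairs of arrays were counted at 2-fold, with 1 array well above background giving a bound. There is no test, since each group has 1 array. Genes named per list were the 4 with the largest absolute difference of LT-HSC from MPP in WT among those measured on both arrays. A gene that this rule names is not reported here. Members and lists were chosen with earlier results of these data known. The code was tested on simulated data. Python 3.11.15, pandas 2.3.3, R 4.3.3 and limma 3.58.1 (normexp with offset 50, quantile normalization) were used.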

Additional observations from a re-analysis of the deposited data

Results flagged for a closer look

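For 5 of the 8 genes the difference of cKO from WT had opposite signs in the populations, read at the brightest probe, and the same held for 49.9% of 24453 genes, so the count is near that of all genes. With 1 array per group this difference between the populations was not tested. Ccr9 stood at -1.32 in LT-HSC and, as a bound, at 2.55 or more in MPP. Irf8 had -0.79 ± 0.20 and 0.091 ± 0.20, Pld4 -0.35 ± 0.20 and 0.34 ± 0.22, and Tlr9 -0.29 ± 0.20 and 0.44 ± 0.20. Tlr7 went the other way, with 0.36 ± 0.21 in LT-HSC and -0.26 ± 0.24 in MPP, but its 2 other probes were positive in both populations. The MPP value of Irf8 lay within its scanner error, and the values of Pld4 and Tlr7 in both populations and of Tlr9 in LT-HSC within 2 errors. Of the values named here, only those of Ccr9 reached 2-fold, and its second probe had no MPP value well above background.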

How the results depend on the processing

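Counts and medians of the members were recomputed under 8 alternatives and under 1 chosen after seeing the data (Siglech by its probe at position 2019), under which 64 values moved by less than 1.5 times (counts) or the scanner error (medians) and 8 by more. When probes were averaged per gene, 0 members reached 2-fold between genotypes in LT-HSC (main 2) and 0 in MPP (main 1), where Ccr9 had only a bound. The medians with that setting were -0.54 for cKO minus WT in LT-HSC, 1.72 for LT-HSC minus MPP in WT and 2.08 in cKO. With only probes well above background on all 4 arrays, which drops Ccr9, 1 member reached 2-fold between genotypes in LT-HSC and 0 in MPP. Quantile normalization gave a median of 1.62 for LT-HSC minus MPP in WT. There it moved the median of all genes by 0.14, normexp with quantile normalization by 0.17 and the percentile taken over probes detected on every array by 0.15. Under the first 2 the brightest Siglech probe stood at 0.47 and 0.45, in place of -0.02. Dim values near the background, such as the MPP values of Ccr9 and Tlr7, limit what can be compared. No paired analysis was possible because each group has 1 array.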

Other observations

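Some relatives of the 8 genes also differed between the arrays. Of 17 genes of the Siglec, phospholipase D, chemokine receptor and interferon regulatory factor families and the Siglec-H adaptor, 16 had a value in WT, and 7 were higher in LT-HSC than in MPP by 2-fold and 2 lower. In cKO 7 of 17 were higher and 1 lower. By that much 10.7% of all genes were higher and 19.3% lower in WT, and 8.18% and 6.74% in cKO, so nothing is read from the lower counts. Tyrobp, the adaptor through which Siglec-H signals, had 18712 (WT) and 16886 (cKO) for LT-HSC, against 5214 (WT) and 5972 (cKO) for MPP. Siglecg, an inhibitory lectin of B cells, had 413.6, 68.9, 33.0 and 25.4 in that order, and was lower on the cKO than on the WT LT-HSC array by -2.504 ± 0.21, with its second probe at -2.05. Siglecf, a lectin of eosinophils, was lower in LT-HSC in WT (-2.06 ± 0.26), but its second probe stood at 0.91.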
